A study of Mus musculus with 6 samples.

Results

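Of the 10 Krüppel-like factor (KLF) genes described here, *Klf9* and *Klf15* were the ones with the strongest evidence of a difference between lungs of GRdim/dim and GR+/+ mice after hemorrhagic shock (HS), and both were lower in GRdim/dim lungs. Counts are given per 1000000 counts of a library (CPM). The mean level of *Klf9* was 113 ± 32.5 CPM in GRdim/dim lungs and 247 ± 44.9 CPM in GR+/+ lungs (± SD, n = 3 lungs each). Mean *Klf15* levels were 58.7 ± 10.2 and 99.8 ± 5.06 CPM (± SD, n = 3 lungs each). *Klf2* and *Klf4* leaned the other way in 2 of the 3 GRdim/dim lungs, with GRdim/dim replicate 1 at the level of the GR+/+ lungs. None of the 10 passed the adjusted test of edgeR over all genes, while *Klf9* and *Klf15* passed that of DESeq2.

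The 10 genes are *Klf2*, *Klf3*, *Klf4*, *Klf6*, *Klf7*, *Klf9*, *Klf10*, *Klf11*, *Klf13* and *Klf15*, taken by their symbols from the 54532 genes with deposited read counts. All 10 passed the filter on low counts that left 16568 genes to test. The GRdim/dim mice carry a point mutation in *Nr3c1*, the gene of the glucocorticoid receptor (GR), which impairs the pairing of receptor molecules in every tissue. Their wild-type littermates (GR+/+) had the same mixed 129/SvEv x C57BL/6 strain, and the mice were 10 to 16 weeks old. All 6 mice, 3 per genotype, had been anesthetized and mechanically ventilated through a tracheostomy. They were bled to a mean arterial pressure of 35 mmHg for 1 h and given back their blood. Treatment with fluids and norepinephrine followed for 4 h before the lungs were taken. Lungs without HS were not analysed here, so every difference below is one between genotypes after shock.

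KLF proteins are zinc finger transcription factors that bind GC-rich and CACCC sequences in promoters, and they share these sequences with the related SP factors. Family members differ outside their DNA-binding domain, so that some mostly activate transcription and others mostly repress it through CtBP or Sin3 corepressors. *Klf9* and *Klf15* are known targets of glucocorticoids that also follow the circadian clock, whereas *Klf2* and *Klf4* are known for keeping endothelium quiescent under blood flow, and *Klf2* also for keeping lymphocytes at rest.

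Since the question of the study was what an impaired GR does to transcription, the promoter sequences of 4 members are shown. *Klf9* and *Klf15*, with the strongest evidence of a difference, come first. *Klf2* and *Klf4* follow, which leaned most toward higher levels in GRdim/dim lungs but overlapped between genotypes. Each sequence is the stretch of 250 bases before the transcription start of RefSeq in build GRCm38.p6, written 5′ to 3′ on the strand of the gene. The windows are chr19:23140976-23141225 (+ strand), chr6:90462326-90462575 (+ strand), chr8:72318812-72319061 (+ strand) and chr4:55532476-55532725 (- strand). The RefSeq start is not always that of the deposited gene model. The *Klf2* window runs past the deposited start at 72319033, so its CACCC box lies inside that model. Of the windows not shown but counted below, those of *Klf3*, *Klf6*, *Klf7* and *Klf11* also reach into the deposited models. Capitals mark every match, on either strand, to a CACCC box (CACCC), a GC box (GGGCGG), an E-box (CACGTG), the GR palindrome core (ACANNNTGT), the CArG box bound by SRF or the MEF2 site.
Klf9: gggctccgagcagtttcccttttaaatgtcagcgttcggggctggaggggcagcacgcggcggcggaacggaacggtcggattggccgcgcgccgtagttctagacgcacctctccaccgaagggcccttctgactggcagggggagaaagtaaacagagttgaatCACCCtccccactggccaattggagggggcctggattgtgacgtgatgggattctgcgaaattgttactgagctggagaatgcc
Klf15: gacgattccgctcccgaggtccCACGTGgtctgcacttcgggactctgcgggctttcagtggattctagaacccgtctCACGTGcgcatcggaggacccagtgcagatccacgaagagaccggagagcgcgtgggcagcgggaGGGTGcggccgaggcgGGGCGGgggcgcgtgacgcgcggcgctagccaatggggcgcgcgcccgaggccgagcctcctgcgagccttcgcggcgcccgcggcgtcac
Klf2: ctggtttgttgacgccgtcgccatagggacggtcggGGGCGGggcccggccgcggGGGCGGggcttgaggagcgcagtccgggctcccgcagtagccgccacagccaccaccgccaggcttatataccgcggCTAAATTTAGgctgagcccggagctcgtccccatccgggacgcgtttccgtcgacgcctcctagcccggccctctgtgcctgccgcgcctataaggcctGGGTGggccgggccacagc
Klf4: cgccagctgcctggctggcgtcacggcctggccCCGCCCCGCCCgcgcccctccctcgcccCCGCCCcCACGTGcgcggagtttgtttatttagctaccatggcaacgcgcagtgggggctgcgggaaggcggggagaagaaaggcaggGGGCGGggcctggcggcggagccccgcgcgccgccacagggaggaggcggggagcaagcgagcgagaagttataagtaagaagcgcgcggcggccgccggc

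The *Klf9* window held 1 of these motifs, a CACCC box that begins 84 bases before the start, and its GC content of 59.6% was the second lowest among the members after *Klf7* with 59.2%. The *Klf15* window held 2 E-boxes, the sequence bound by the clock factors CLOCK and BMAL1, which begin at -228 and -172. *Klf2* had the only MEF2 site of the members, at -118, and *Klf4* had 4 GC boxes, of which those at -217 and -212 share 1 base. Promoter sequence was found in the RefSeq table for 9 of the 10 members, all but *Klf10*. The GR palindrome core was in 0 of these 9 windows and in 5.84% of all 32851 promoters of the same length. An E-box was in 4 of the 9 (*Klf4*, *Klf6*, *Klf11* and *Klf15*) against 6.02% of all, a GC box in 8 against 32.7%, a CACCC box in 6 against 52.0%, a MEF2 site in 1 against 0.508% and a CArG box in 0 against 1.47%. GC content was 59.2% to 78.4% in the members and 52.4% in the median promoter. These are matches of letters within a short window and say nothing about binding there or farther away.

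*Klf9* encodes a factor induced by glucocorticoids and thyroid hormone that mostly represses its targets. It had 297, 231 and 212 CPM in GR+/+ replicates 1, 2 and 3, and 132, 130.4 and 75.0 CPM in GRdim/dim replicates 1, 2 and 3. All GRdim/dim lungs lay below all GR+/+ lungs, and the highest GRdim/dim value was well under the lowest GR+/+ value. The log2 fold change (GRdim/dim minus GR+/+) was -1.13 with a standard error (SE) of 0.24 and a 95% interval from -1.67 to -0.60. With an unadjusted *p* of 0.000762 from edgeR it ranked 96 among all genes tested, and the adjusted *p* was 0.131. DESeq2, the tool named in the study's methods, gave the same log2 fold change with an adjusted *p* of 0.00182. The gene lies on chromosome 19 of GRCm38 from 23141226 to 23166911.

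The lower *Klf9* level did not rest on a single lung for its direction. Leaving out each library in turn gave log2 fold changes between -1.26 and -0.91 in edgeR. DESeq2 called *Klf9* in 6 of 7 fits, the exception being the fit without GR+/+ replicate 1, which has the highest level (adjusted *p* = 0.0645 from DESeq2). The deposited counts use a *Klf9* model that ends 1223 bases before the end of the gene in GENCODE M21, so reads from that last part may not have been counted in any library.

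*Klf15* encodes an activator of amino acid breakdown that fasting and glucocorticoids raise in liver and muscle and that is also present in airway smooth muscle. The GR+/+ lungs had 104, 102 and 94.1 CPM and the GRdim/dim lungs 50.4, 70.1 and 55.7 CPM. The GR+/+ lungs were close to each other, with an SD of 0.07 on the log2 scale against 0.24 in GRdim/dim lungs, and the genotypes did not overlap. The log2 fold change was -0.76 (SE 0.17, 95% interval -1.15 to -0.38, unadjusted *p* = 0.00113 and adjusted *p* = 0.164 from edgeR). DESeq2 gave an adjusted *p* of 0.0251 for this gene on chromosome 6 (90462576 to 90475238). Of the 7 DESeq2 fits, 3 called *Klf15*, and the call was lost without GR+/+ replicate 1 (adjusted *p* = 0.189), 2 (0.174) or 3 (0.0624) and without GRdim/dim replicate 1 (0.142). The direction held throughout, with log2 fold changes from edgeR between -0.91 and -0.66 as libraries were left out.

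**Figure D1:**
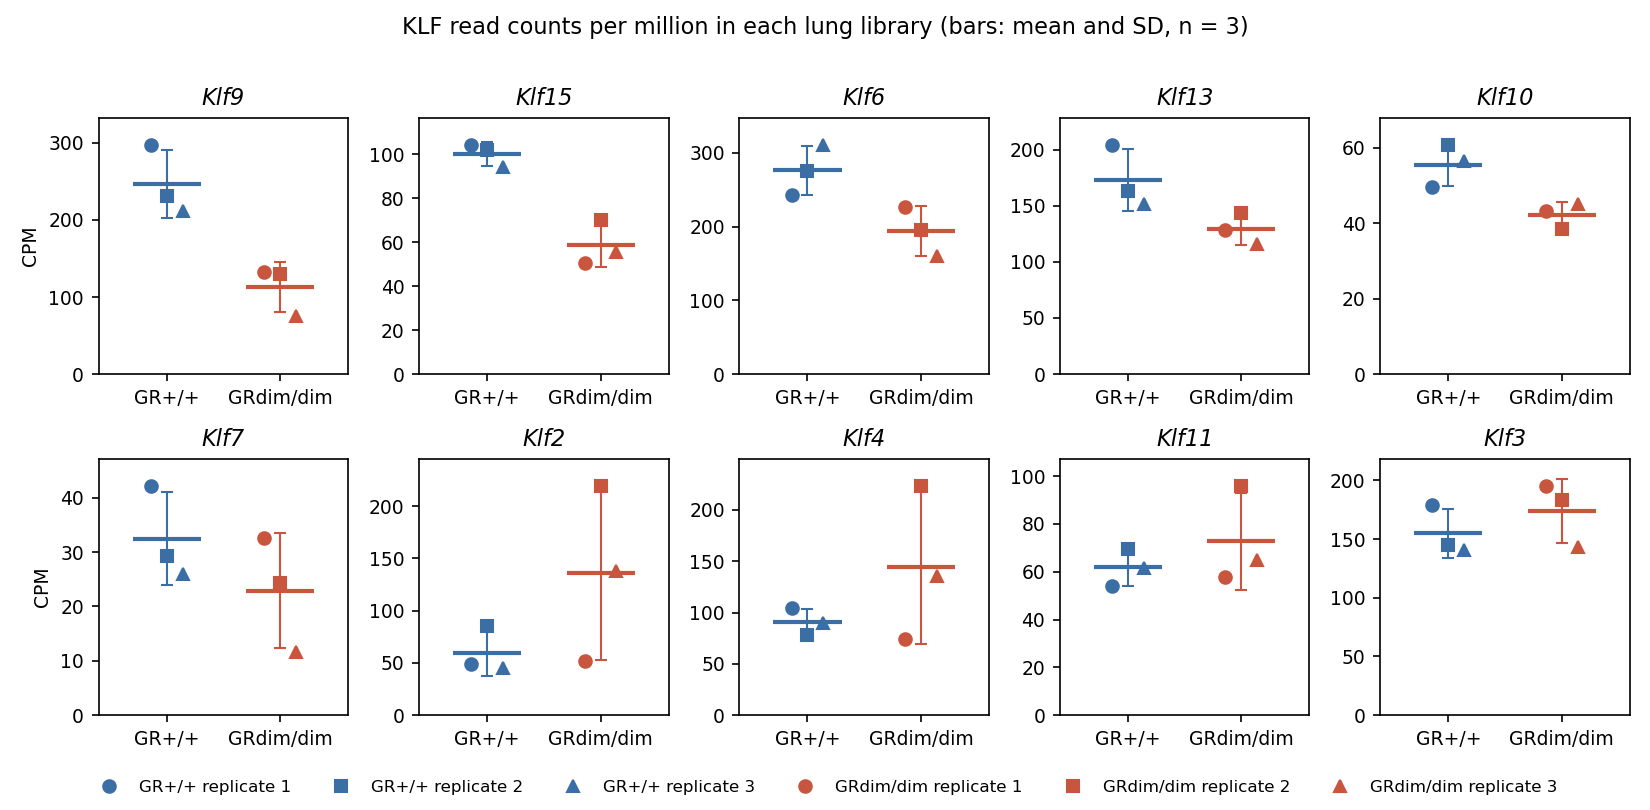
Read counts scaled per library (CPM, y axis from 0) of the 10 KLF genes in the 3 GR+/+ (blue) and 3 GRdim/dim (red) lung libraries; each point is 1 library, its shape gives the replicate number, and lines with bars are the mean and SD. GRdim/dim points lie below all GR+/+ points for *Klf9*, *Klf15*, *Klf6*, *Klf13* and *Klf10*, while for *Klf2* and *Klf4* GRdim/dim replicates 2 and 3 are high and replicate 1 is not.

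The members *Klf6*, *Klf13* and *Klf10* had smaller differences in the same direction. *Klf6*, an early-response factor active in injured epithelium and endothelium and in macrophages, had 243, 275 and 310.3 CPM in GR+/+ and 227, 195 and 160.3 CPM in GRdim/dim lungs. The genotypes did not overlap, but GRdim/dim replicate 1 lay only slightly below GR+/+ replicate 1. Its log2 fold change was -0.51 (SE 0.19, 95% interval -0.93 to -0.09, adjusted *p* = 0.438 from edgeR).

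*Klf13* encodes a close relative of KLF9 that represses through Sin3a and regulates chemokine expression in T cells. Its levels were 204, 163 and 152 CPM in GR+/+ and 128, 144 and 116 CPM in GRdim/dim lungs, again without overlap. GR+/+ replicate 1 stood highest, and without it the log2 fold change moved from -0.42 (SE 0.18, 95% interval -0.81 to -0.03, adjusted *p* = 0.487 from edgeR) to -0.28.

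*Klf10*, also known as TGF-beta-inducible early gene, had 49.5, 60.6 and 56.3 CPM in GR+/+ and 43.1, 38.5 and 45.1 CPM in GRdim/dim lungs. The groups were narrow and did not overlap, and the spread of *Klf10* between replicates was smaller than that of most genes, since only 8.77% of all genes tested had a smaller one. The log2 fold change was -0.39 (SE 0.17, 95% interval -0.76 to -0.02, adjusted *p* = 0.491 from edgeR). *Klf6* lies on chromosome 13, *Klf13* on chromosome 7 and *Klf10* on chromosome 15.

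*Klf2* encodes the factor that blood flow induces in endothelium, where it raises anticoagulant and vasodilating genes, and that keeps naive lymphocytes quiescent. It had 49.2, 85.1 and 45.1 CPM in the GR+/+ lungs and 51.7, 219 and 138 CPM in the GRdim/dim lungs. GRdim/dim replicates 2 and 3 were above every GR+/+ lung, whereas GRdim/dim replicate 1 was among them, so the genotypes overlapped. The log2 fold change was 1.19 (SE 0.47, 95% interval 0.12 to 2.26, unadjusted *p* = 0.0328 and adjusted *p* = 0.471 from edgeR). Its replicates were spread more widely than those of 95.1% of the genes tested.

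*Klf4*, a partner of KLF2 in endothelium and a factor of monocyte and epithelial differentiation, had 104, 77.7 and 89.6 CPM in GR+/+ and 73.9, 223 and 136 CPM in GRdim/dim lungs. The same GRdim/dim lungs were high as for *Klf2*, and GRdim/dim replicate 1 had the lowest level of all. The log2 fold change was 0.68 (SE 0.33, 95% interval -0.06 to 1.41, unadjusted *p* = 0.0673 and adjusted *p* = 0.566 from edgeR). Both values depend on single lungs. Without GRdim/dim replicate 2 the log2 fold change from edgeR was 0.67 for *Klf2* and 0.22 for *Klf4*, and without GRdim/dim replicate 1 it was 1.59 and 1.0. That last set of 5 lungs was the only one in which DESeq2 called *Klf2* (adjusted *p* = 0.00017) and *Klf4* (adjusted *p* = 0.0248), where it called 1.34% of all genes.

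For the remaining 3 members the genotypes overlapped and no direction could be told. *Klf11*, a TGF-beta-inducible factor and relative of KLF10, had 54.2, 69.7 and 61.4 CPM in GR+/+ and 57.6, 95.7 and 64.7 CPM in GRdim/dim lungs. One lung, GRdim/dim replicate 2, carried its log2 fold change of 0.24 (SE 0.21, 95% interval -0.24 to 0.71, adjusted *p* = 0.803 from edgeR), which was -0.01 without it.

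*Klf3*, a repressor that acts through CtBP and is active in B cells and red cell precursors, had 179, 145 and 141 CPM in GR+/+ and 195, 183 and 143 CPM in GRdim/dim lungs. Its log2 fold change was 0.17 (SE 0.18, 95% interval -0.24 to 0.57, adjusted *p* = 0.846 from edgeR), an interval that leaves room for a modest difference either way. *Klf7*, best known from neurons, had 42.1, 29.3 and 25.9 CPM in GR+/+ and 32.6, 24.4 and 11.6 CPM in GRdim/dim lungs. GRdim/dim replicate 3 was lowest, and the log2 fold change of -0.50 (SE 0.34, 95% interval -1.25 to 0.25, adjusted *p* = 0.710 from edgeR) was -0.18 without that lung, -0.26 without GR+/+ replicate 1 and -0.83 without GRdim/dim replicate 1. Antisense genes overlap 404 exonic bases of *Klf3* and 3196 of *Klf7*, and reads could come from either strand if the counting did not use strand. The overlapping genes themselves had 12 to 50 counts (*Gm20033*, at *Klf3*) and 0 counts (*Gm26649*, at *Klf7*) per library.

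Counted over the 10 members, which were chosen with earlier results of these data known, 6 had an unadjusted *p* under 0.05 in edgeR's test. Of these 5 were lower in GRdim/dim lungs (*Klf9*, *Klf15*, *Klf6*, *Klf13* and *Klf10*), where 4.68% of all genes tested were, and 1 was higher (*Klf2*), where 4.91% of all were. The same 5 lower members were those whose libraries did not overlap, a pattern found in 7.05% of all genes, and 0 members were higher without overlap, against 7.77% of all. After adjustment over all 16568 genes, edgeR called 0 of the 10 (adjusted *p* under 0.05 and a log2 fold change beyond 0.5), with 0.169% of all genes called, and the adjusted *p*-values of the members ran from 0.131 to 0.846. DESeq2 called 2 of the 10, with 1.70% of all genes called. Without a filter on low counts edgeR also called these 2, *Klf9* (adjusted *p* = 1.39e-05) and *Klf15* (adjusted *p* = 0.0161), with 1.66% of all genes called. The median log2 fold change over the members was -0.41, beside 0.006 over all genes tested. The count of 6 was 3 without GR+/+ replicate 2 or 3 and without GRdim/dim replicate 2 or 3, and 4 without GR+/+ replicate 1. An exact permutation test of a single gene gave *p* = 0.1 for each of the 5 without overlap, the smallest *p* that 3 lungs against 3 allow.

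**Figure D2:**
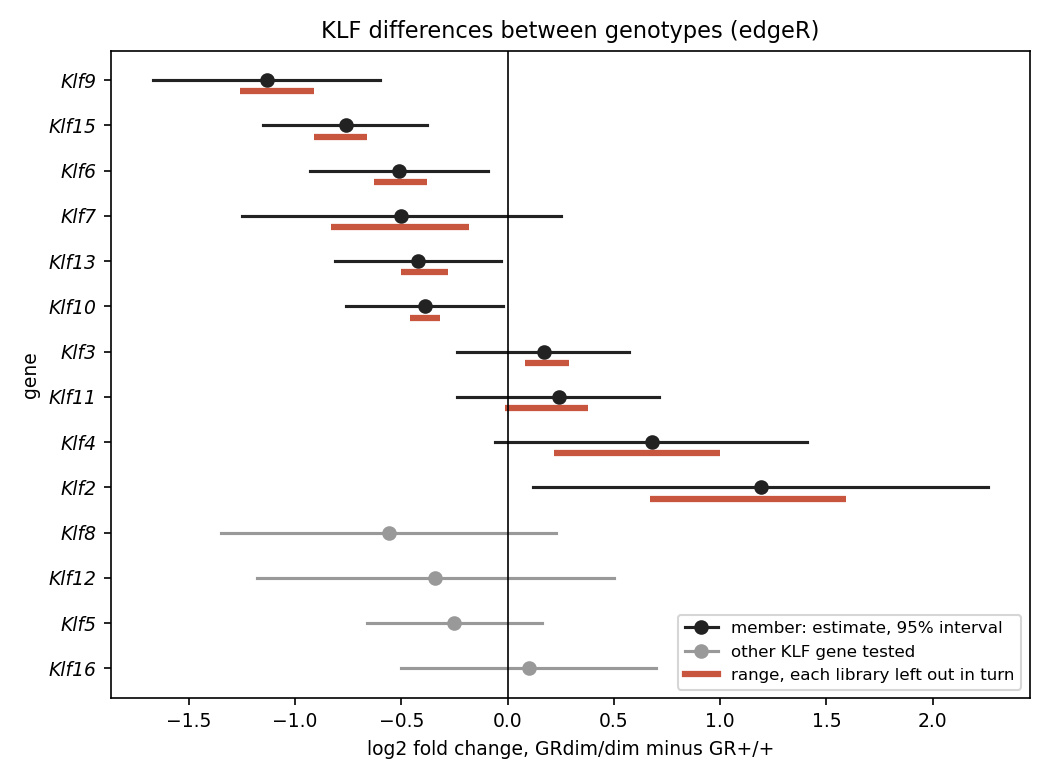
Log2 fold change (x axis, GRdim/dim minus GR+/+) of each KLF member and, in grey, of the 4 other KLF genes that passed the filter, with the 95% interval of the edgeR fit; red bars give the range over the 6 fits that each leave out 1 library. The members run from -1.13 for *Klf9* to 1.19 for *Klf2*, and the intervals of *Klf9*, *Klf15*, *Klf6*, *Klf13*, *Klf10* and *Klf2* do not reach 0.

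To compare levels between the genes, CPM were divided by the exonic length in kilobases. In GR+/+ lungs *Klf9* was the most abundant KLF gene, with a mean of 75.6 ± 13.8 CPM per kb, before *Klf6* with 62.9 ± 7.70, *Klf15* with 35.8 ± 1.81, *Klf2* with 32.4 ± 11.9 and *Klf4* with 29.6 ± 4.29 CPM per kb (SD, n = 3 each). The order of *Klf9* and *Klf6* was not the same in every GR+/+ lung, and in GR+/+ replicate 3 *Klf6* was the higher. In GRdim/dim lungs *Klf2* came first with 73.9 ± 45.4 CPM per kb, before *Klf4* with 47.3 ± 24.6, *Klf6* with 44.3 ± 7.64, *Klf9* with 34.5 ± 9.96 and *Klf15* with 21.0 ± 3.66 CPM per kb (SD, n = 3 each). That order came from GRdim/dim replicates 2 and 3, since in replicate 1 *Klf6* (51.8 CPM per kb) and *Klf9* (40.5) were above *Klf2* (28.0) and *Klf4* (24.2). *Klf13*, *Klf11*, *Klf3*, *Klf10* and *Klf7* followed in this order in both genotypes, from 22.9 down to 3.99 CPM per kb in GR+/+ and from 17.1 down to 2.81 in GRdim/dim lungs. The levels of *Klf11* and *Klf3* lay within each other's spread. The *Klf9* model of GENCODE M21 is longer, with 4815 in place of 3263 exonic bases. The deposited counts divided by that length give means of 51.3 CPM per kb in GR+/+ and 23.4 in GRdim/dim lungs, values that are too low if reads from the added bases were not counted. The place of *Klf9* relative to *Klf6* in GR+/+ lungs is therefore uncertain.

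Summed over the 10 members, the level was 317, 310.2 and 287 CPM per kb in GR+/+ and 225, 371 and 254 CPM per kb in GRdim/dim lungs (two-sided exact permutation test, *p* = 0.6). What differed was the make-up of the sum. *Klf9* made up 28.8%, 22.9% and 22.6% of it in GR+/+ and 18.1%, 10.8% and 9.05% in GRdim/dim lungs. *Klf2* made up 8.42%, 14.9% and 8.52% in GR+/+ and 12.5%, 32.0% and 29.4% in GRdim/dim lungs, so that GRdim/dim replicate 1 lay within the range of the GR+/+ lungs for *Klf2* but below it for *Klf9*.

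**Figure D3:**
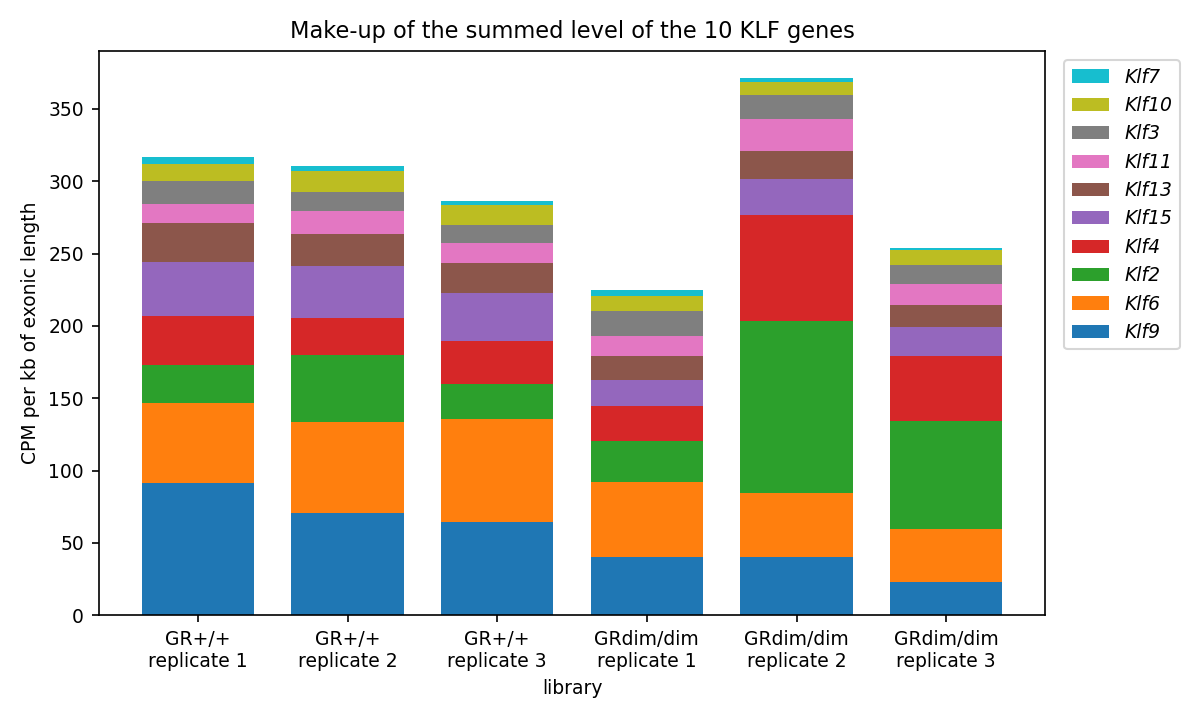
Summed level of the 10 KLF genes in each of the 6 libraries (CPM per kb of exonic length, stacked bars from 0, each color 1 gene, lengths as deposited). The *Klf9* segment is smaller in all 3 GRdim/dim libraries, and the *Klf2* and *Klf4* segments are large in GRdim/dim replicates 2 and 3, where they add up to about as much as the other 8 genes.

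Ratios between 2 members within a library do not depend on how libraries are scaled. Of the 45 pairs of members, 18 (40%) had ratios that did not overlap between genotypes. The share among pairs of all genes was not computed, so whether 40% is unusual cannot be told. The pairs reuse the same members, which were chosen with earlier results of these data known. Most of the 18 pairs contained *Klf9* or *Klf15*, whose levels did not overlap between genotypes on their own. The *Klf2* to *Klf9* ratio of CPM was 0.166, 0.368 and 0.213 in GR+/+ and 0.391, 1.68 and 1.84 in GRdim/dim lungs. Here GRdim/dim replicate 1 was narrowly above all GR+/+ lungs. These 2 genes had the highest and the lowest log2 fold change of the members, so a difference in their ratio follows from that choice. For *Klf3* to *Klf9*, in which the numerator differed little between genotypes, the ratio was 0.600, 0.625 and 0.667 in GR+/+ and 1.48, 1.40 and 1.91 in GRdim/dim lungs. The *Klf9* to *Klf15* ratio was 2.87, 2.28 and 2.25 in GR+/+ and 2.63, 1.86 and 1.35 in GRdim/dim lungs, with overlap (two-sided exact permutation test, *p* = 0.3).

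Genes most like a member were found by the root mean square (RMS) difference of log2 CPM over the 6 libraries, each gene centred on its mean. For *Klf9* they were *Nox4*, an NADPH oxidase gene (RMS difference 0.151), *Eda* (0.151) and *Gm9821* (0.161). *Nox4* had 141, 140.4 and 106 CPM in GR+/+ and 71.9, 69.2 and 32.7 CPM in GRdim/dim lungs, low in GRdim/dim replicate 3 as *Klf9* was. For *Klf15* the most alike were *Itpr3*, an inositol trisphosphate receptor gene (0.093), *Agap1* (0.098) and *9130019O22Rik* (0.10). For *Klf2* they were *Blk*, a kinase gene of B cells (0.146), *Cd5*, a lymphocyte surface gene (0.232) and *Gpr132* (0.244). *Blk* had 2.39, 4.74 and 2.06 CPM in GR+/+ and 3.29, 12.2 and 7.04 CPM in GRdim/dim lungs, which repeats the order of the GRdim/dim lungs seen for *Klf2*. Among members, *Klf4* was closest to *Klf2* (RMS 0.486, rank 118 of 16567 genes) and *Klf13* to *Klf15* (0.229, rank 180), while *Klf7* (0.35, rank 189) and *Klf15* (0.357, rank 207) were closest to *Klf9*. With 6 libraries many genes share such a pattern. The named genes were picked for it, so a shared order of lungs follows from the choice, and these values are descriptions.

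Lungs hold many cell types, and in whole-lung RNA fewer cells of a type and less RNA per cell cannot be told apart. KLF2 is a factor of lymphocytes and endothelium. Of 7 T cell markers 4 had an unadjusted *p* under 0.05 with higher levels in GRdim/dim lungs, against 4.91% of all genes tested (4.68% were lower). The same held for 4 of 5 B cell, 3 of 6 neutrophil and 3 of 4 monocyte markers, with 0 called by edgeR. The B cell markers summed to 26.1 to 57.1 CPM in GR+/+ and 59.3 to 86.4 CPM in GRdim/dim lungs, and the T cell markers to 17.6 to 37.7 and 42.1 to 52.3 CPM. GRdim/dim replicate 1, low in *Klf2*, had 59.3 CPM of B cell and 42.1 CPM of T cell markers, both above every GR+/+ lung. The neutrophil sum was 234 to 442 CPM in GR+/+ and 335 to 1039 CPM in GRdim/dim lungs. The monocyte sum was 214 to 368 and 469 to 1090.4 CPM, but most of it in GRdim/dim lungs was *Nr4a1*, which is also on the immediate-early list and had 255, 73.1 and 144 CPM in GR+/+ and 275, 992 and 353 CPM in GRdim/dim lungs. The other 3 monocyte markers summed to 113, 141 and 82.0 CPM in GR+/+ and 201, 98.4 and 116 CPM in GRdim/dim lungs, with overlap. Of the 9 endothelial markers 1 was higher and 1 lower at an unadjusted *p* under 0.05. Whatever their *p*, 8 of the 9 had a negative log2 fold change, with a median of -0.2. Their sums were 2816 to 4232 CPM in GR+/+ and 3287 to 3773 CPM in GRdim/dim lungs. Alveolar macrophage markers summed to 328 to 369 CPM in GR+/+ and to 166 to 258 CPM in GRdim/dim lungs, and 1 of 6 was lower at an unadjusted *p* under 0.05. That marker, *Chil3*, had 244, 250.3 and 264 CPM in GR+/+ and 161, 156 and 95.6 CPM in GRdim/dim lungs. The other 5 summed to 98.7, 77.8 and 104 CPM in GR+/+ and 96.6, 72.2 and 70.5 CPM in GRdim/dim lungs, which overlapped. *Nr4a1* and *Chil3* were singled out after their values were seen. No marker of these lists was at 0 in any library. The part of these cells in the KLF levels was not tested.

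The other KLF genes gave no call, and 0 of the 4 tested had an unadjusted *p* under 0.05 in either direction. Of all genes tested, 4.68% were lower and 4.91% higher at that *p*. Of 7, the 4 that passed the filter were *Klf5*, a factor of lung epithelium (56.1 to 88.5 CPM over the 6 libraries, log2 fold change -0.25, 95% interval -0.66 to 0.16), *Klf8* (2.0 to 5.3 CPM, -0.56, interval -1.35 to 0.23), *Klf12* (2.26 to 7.02 CPM, -0.34, interval -1.18 to 0.50) and *Klf16* (18.5 to 39.3 CPM, 0.10, interval -0.50 to 0.70). *Klf1*, *Klf14* and *Klf17* were near or at 0 counts. Of the SP genes, whose proteins bind the same GC boxes, 5 of 9 passed the filter, and 0 of these had an unadjusted *p* under 0.05 in either direction. Among 10 genes for corepressors, acetyltransferases and a ubiquitin ligase that act with or on KLF proteins, 1 did, *Ep300*, a histone acetyltransferase gene (log2 fold change -0.44, SE 0.19, adjusted *p* = 0.497 from edgeR).

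Genes known to follow KLF15 were taken next. Of 8 genes of amino acid breakdown and muscle wasting, 2 had an unadjusted *p* under 0.05, both lower, against 4.68% of all genes tested. *Prodh*, the first enzyme of proline breakdown, had 42.5, 77.8 and 52.8 CPM in GR+/+ and 22.6, 23.5 and 31.2 CPM in GRdim/dim lungs. Its genotypes did not overlap, and the log2 fold change was -1.16 (SE 0.25, unadjusted *p* = 0.00071 and adjusted *p* = 0.131 from edgeR). *Tat*, tyrosine aminotransferase, is a liver enzyme with 28, 25 and 45 counts in GR+/+ and 0, 16 and 0 counts in GRdim/dim lungs. These counts are too few for a stable ratio. The median log2 fold change over the 8 genes was -0.18.

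Few of the known endothelial targets of KLF2 and KLF4 had an unadjusted *p* under 0.05. Over all genes tested, 4.68% were lower and 4.91% higher at that *p*. Of 5 tested genes that these factors induce, 0 had an unadjusted *p* under 0.05 in edgeR's test in either direction, and the median log2 fold change was 0.03. Of 6 genes that they repress, 2 were lower, *Sele*, the gene of E-selectin (log2 fold change -1.07, SE 0.43, adjusted *p* = 0.469 from edgeR), and *Ace*, angiotensin-converting enzyme (-0.87, SE 0.33, adjusted *p* = 0.439 from edgeR). *Sele* was weakly expressed, with 1.37 to 1.52 CPM in GR+/+ and 0.540 to 0.917 CPM in GRdim/dim lungs. *Ccl2* of that list, named after its values were seen, was listed at 0 counts in GRdim/dim replicate 2 and at 30 to 118 counts in the other libraries. Of 6 genes of the flow-sensing pathway that induces *Klf2* and *Klf4*, with *Piezo1* and the MEF2 genes, 0 had an unadjusted *p* under 0.05 in either direction. From a list of 4 genes of lymphocyte homing under KLF2, *Ccr7*, a chemokine receptor gene, is named because its unadjusted *p* was the smallest. Its log2 fold change was 1.03 (SE 0.28, adjusted *p* = 0.253 from edgeR), and edgeR called 0 of the 4. *Ccr7* had 10.5, 9.35 and 6.42 CPM in GR+/+ and 14.7, 22.9 and 15.7 CPM in GRdim/dim lungs. Its GRdim/dim lungs all lay above its GR+/+ lungs, a pattern found in 7.77% of all genes tested.

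*Klf9* and *Klf15* belong to the genes known to respond to glucocorticoids. Of 15 other such genes, 6 were lower and 1 was higher at an unadjusted *p* under 0.05, against 4.68% and 4.91% of all genes tested. The median log2 fold change of the 15 was -0.23. *Pdk4*, a kinase that limits glucose oxidation, was called lower by edgeR, with 72.1, 62.0 and 65.4 CPM in GR+/+ and 25.1, 21.1 and 23.8 CPM in GRdim/dim lungs (log2 fold change -1.51, SE 0.17, adjusted *p* = 0.00931). *Fkbp5*, a co-chaperone of GR, and *Tsc22d3*, the gene of GILZ, had log2 fold changes of -1.25 and -0.99 (adjusted *p* = 0.103 and 0.175 from edgeR) without overlap, close in size to that of *Klf9*. *Cebpd* was the higher gene, with a log2 fold change of 0.92 (SE 0.33, adjusted *p* = 0.417 from edgeR), and its 705 and 778 CPM in GRdim/dim replicates 2 and 3 against 284 CPM in replicate 1 place the lungs as *Klf2* and *Klf4* did.

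Clock genes have a daily rhythm that *Klf9* and *Klf15* are known to follow in other tissues. Of 17, 5 were lower and 1 was higher at an unadjusted *p* under 0.05, against 4.68% and 4.91% of all genes tested. The lower ones with the smallest *p* were *Per2* (log2 fold change -1.17, SE 0.23, adjusted *p* = 0.0997 from edgeR) and *Cry1* (-0.69, SE 0.18, adjusted *p* = 0.249 from edgeR), both repressors of the clock whose libraries did not overlap. *Bhlhe40*, which also represses through E-boxes, was the higher gene (0.52, SE 0.19, adjusted *p* = 0.437 from edgeR). The hour at which each lung was taken is not given in the sources used here, and the part of it in the levels of *Klf9*, *Klf15* and *Per2* was not tested.

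*Klf2*, *Klf4*, *Klf6* and *Klf10* are induced within minutes by many stimuli, as the immediate-early genes are. Of 13 such genes 5 were higher and 1 was lower at an unadjusted *p* under 0.05, against 4.91% and 4.68% of all genes tested. The median log2 fold change of the 13 was 0.57. *Ier2* had a log2 fold change of 0.69 (SE 0.19, adjusted *p* = 0.286 from edgeR) with 152, 118 and 121 CPM in GR+/+ and 167, 241 and 221 CPM in GRdim/dim lungs, and *Ier3* one of 0.57 (SE 0.17, adjusted *p* = 0.312 from edgeR). *Jun*, a component of AP-1, was the lower gene (-0.90, SE 0.24, adjusted *p* = 0.251 from edgeR). The early-response members themselves lay on either side of 0, with log2 fold changes of 1.19 and 0.68 for *Klf2* and *Klf4* and of -0.51 and -0.39 for *Klf6* and *Klf10*.

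**Figure D4:**
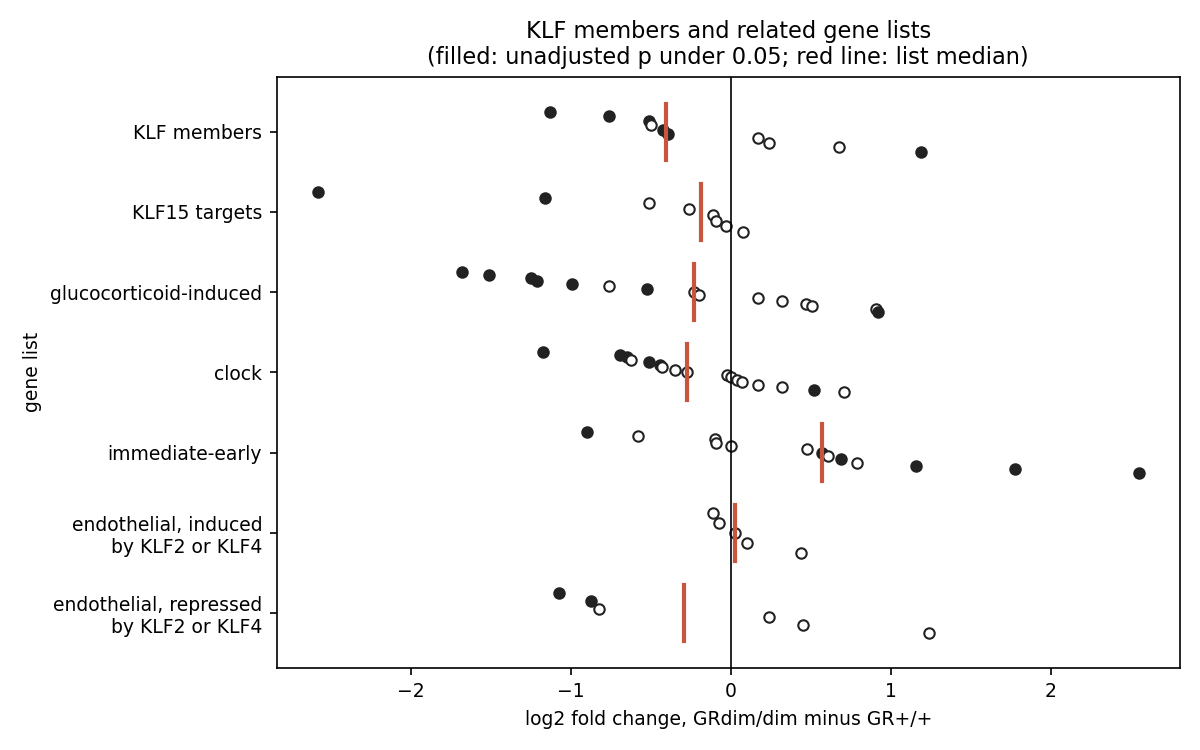
Log2 fold change (x axis, GRdim/dim minus GR+/+, edgeR) of the KLF members and of the tested genes of 6 related lists, each point 1 gene, filled where the unadjusted *p* is under 0.05, with a red line at the median. The medians lie at -0.41 for the members, -0.23 for glucocorticoid-induced, -0.27 for clock and 0.57 for immediate-early genes.

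The libraries held 15687734 to 32082940 counts. *Nr3c1* itself had a log2 fold change of -0.05 (SE 0.17, adjusted *p* = 0.961 from edgeR), and a read count cannot show its point mutation. The lung genes *Sftpc*, *Scgb1a1*, *Ager* and *Cdh5* were abundant in every library, from 529 CPM upward. With a covariate for sex-linked expression, used because the study had 2 female GR+/+ and 1 female GRdim/dim mice, the log2 fold changes were -1.14 for *Klf9*, -0.72 for *Klf15* and 1.38 for *Klf2*, and 4 members had an unadjusted *p* under 0.05.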

How the data were processed

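Poly(A)-captured RNA from whole lungs of 3 GR+/+ and 3 GRdim/dim mice was sequenced, 1 library per mouse. The deposited values are read counts of each gene, whole numbers that the authors had neither normalized nor pooled. Build mm10 and DESeq2 are named in the submitters' processing notes, and the aligner, counting tool and use of strand are not given in the sources used here. Genotypes and replicate numbers come from the sample labels. Coordinates and exonic lengths are those deposited, and for 9 of the 10 members they equal those of GENCODE M21.

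The counts were tested with edgeR 4.0.16 in R 4.3.3, using TMM factors, filterByExpr and the robust quasi-likelihood fit (glmQLFit, glmQLFTest), and *p*-values were adjusted by Benjamini-Hochberg over 16568 genes. Called genes had an adjusted *p* under 0.05 and a log2 fold change beyond 0.5. DESeq2 1.42.0 was run with its defaults as the alternative, with adjusted *p*-values for 16150 genes. CPM use TMM-scaled totals, and a prior count of 2 entered log2 CPM. SEs were derived from the log2 fold change and the test statistic of edgeR, and 95% intervals from these SEs. An interval therefore excludes 0 where the unadjusted *p* is under 0.05. Permutation tests were exact, over the 20 assignments of 6 libraries to 3 and 3. The procedure was tested on simulated data. Total counts per library were 15687734 to 32082940, and for all 10 members the spread between mice exceeded the counting error.

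Replicates differed beyond sampling noise (19.2 to 62.9 per gene in a chi-square test, where noise gives 1). Sequences shared with another gene made up at most 2.0% of the windows of 31 bases of any member. Members and lists were chosen with earlier results of these data known. All 10 members are described. Of a related list, called genes and up to 2 per direction with the smallest unadjusted *p* under 0.05 are named, and for *Klf9*, *Klf15* and *Klf2* the 3 genes most alike. A gene of the related lists is not reported here. The alternatives tried were DESeq2, size factors by RLE, testing without the filter or with a minimum of 10 counts per library, the replicate block, sex-linked expression as a covariate, dropping the fold change threshold, and leaving out single libraries. DESeq2 with each library left out was added after seeing the data.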

Additional observations from a re-analysis of the deposited data

How the results depend on the processing

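RLE scaling, at least 10 counts in every library, the covariate for sex-linked expression and no threshold on the fold change left 0 of the 10 KLF members called by edgeR. Without a filter on low counts 2 members, 522 of all genes and 17 genes of the related lists were called, and DESeq2 called 2 members, 274 of all genes and 9 genes of the lists. In the test as reported these numbers were 0, 28 and 1, and the cause was not tested. With the covariate for sex-linked expression 2 genes of the lists were called. With each library left out in turn, edgeR called 0 members in every case, 4 to 22 of all genes and 0 to 1 genes of the lists, and 3 to 6 members had an unadjusted *p* under 0.05. All genes called were 12, 4 and 17 without GR+/+ replicates 1, 2 and 3 and 14 without GRdim/dim replicate 3. DESeq2 with libraries left out, added after seeing the data, called 0 to 3 members (0, 1 and 1 without GR+/+ replicates 1, 2 and 3, and 3, 2 and 2 without GRdim/dim replicates 1, 2 and 3) and 182, 192, 175, 253, 241 and 384 of all genes in that order.

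The direction of 9 of the 10 members was the same in all 18 settings. That of *Klf11* reversed without GRdim/dim replicate 2, with log2 fold changes of -0.01 (edgeR) and -0.02 (DESeq2), and its edgeR values ran from -0.01 to 0.38 as libraries were left out. Scaling moved the median of all genes by at most 0.005 on the log2 scale.

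The replicate number as a block gave 0 members called, 6 at an unadjusted *p* under 0.05, 34 of all genes and 1 gene of the lists. Deviations of same-numbered libraries from their group means correlated at 0.218, 0.036 and -0.055, and 3 of 6 libraries correlated best with their own number. With 3 libraries per genotype such a check cannot tell whether the numbers pair the mice.

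With 3 mice per genotype, the spread between mice limits what can be told of differences as small as those of *Klf3* and *Klf11*.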
